A study of Mus musculus with 6 samples.

Results

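Retinoic acid (RA), the active metabolite of vitamin A, is made and destroyed inside cells by a small set of enzymes, and its level sets how strongly the RA signalling pathway is switched on. The genes described here are 9 enzymes and carriers of this pathway, listed by name with earlier results of these data known, out of 25239 genes counted in hippocampal RNA of WT and Ube3a m-/p+ mice. They are *Stra6*, *Rdh10*, *Dhrs3*, *Aldh1a1*, *Aldh1a2*, *Aldh1a3*, *Crabp1*, *Crabp2* and *Cyp26b1*. All 9 are present in the count tables, and 6 of them passed edgeR's filter on low counts and entered the test, which covered 14445 genes.

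In a cell, retinol arrives bound to its plasma carrier and is oxidised in a first reversible step to retinaldehyde and in a second irreversible step to RA. RA then binds small cytosolic carriers, activates the nuclear receptors RAR and RXR, or is hydroxylated and lost. In the adult brain RA takes part in homeostatic synaptic plasticity in the hippocampus, and the meninges that cover the brain are a well known site of its synthesis.

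There were 3 samples of WT (Ube3a m+/p+) and 3 of Ube3a m-/p+ hippocampus, all from male mice of the C57BL/6 strain, aged 6 to 8 weeks by the study's methods. Each genotype was represented by 3 mice with 1 library each. The samples of the 2 genotypes are called WT and mutant in what follows. The Ube3a m-/p+ mouse is a model of Angelman syndrome: it lacks a working maternal copy of *Ube3a*, which encodes a ubiquitin ligase, and keeps the paternal copy, which is silenced in neurons but not in most other cells. The deleted part of the gene is not described in the sources used here. The comparison asks whether loss of maternal *Ube3a* goes along with other transcript levels of the genes that make, carry and remove RA.

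The WT libraries held 7293272 to 8675252 counts on genes and the mutant libraries 8871052 to 11314409. *Ube3a*, the gene the labels name as altered, averaged 132 ± 25.0 (SD, n = 3) counts per 1000000 counts on genes (CPM) in WT and 86.8 ± 8.78 CPM (SD, n = 3) in mutant samples, and its fall passed the test (log2 fold change -0.58, edgeR adjusted p = 0.0363). Its exons share 1803 bases with *Snhg14*, a counted gene on the opposite strand, and the strand setting of the counting is not given. Whether this affects the *Ube3a* counts was not tested. Calls over all genes depended on single samples: edgeR called 290 genes with all 6 samples, 0 without WT sample 2, WT sample 3 or mutant sample 2 (2075, 2159 and 2128 at an unadjusted p below 0.05), and 2 without mutant sample 3, both higher, so the *Ube3a* call was lost in each of these. It was also lost once expression was corrected for the GC content and length of transcripts, where *Ube3a* had a log2 fold change of -0.20 (edgeR adjusted p = 0.241). Without WT sample 1 it called 2582 and without mutant sample 1 1816. Excitatory neuron genes of the hippocampus were well counted (*Slc17a7* 84915 counts and *Prox1* 8207 counts in the 6 libraries), while *Zbtb20* had 152 counts. WT 1 and mutant 1 lay next to each other on the first principal component (-2.29 and -1.43), between the other WT samples (20.2 and 29.6) and the other mutant samples (-20.5 and -25.6), so calls that changed without both are given too. As this is bulk tissue, fewer cells of a type and less RNA per cell cannot be told apart.

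None of the 6 tested genes was called (0 of 6), where a call needed a fold change over 1.2 and a Benjamini-Hochberg adjusted p under 0.05 in edgeR's quasi-likelihood test. Of all tested genes 2.01% were called, 1.02% as higher and 0.990% as lower in mutant samples. At an unadjusted p below 0.05 there was 1 of the 6, *Aldh1a1*, against 24.6% of all tested genes. DESeq2 called the same gene, among 967 of all 14445 genes. *Aldh1a1* was lower in every mutant sample, by 23.2% in the fitted mean. *Cyp26b1* was also lower in the mean, and *Stra6*, *Dhrs3* and *Aldh1a2* were higher, each with a 95% interval that includes 0. *Rdh10* had a log2 fold change of 0.01. Their median on the log2 scale was 0.07, against 0.00 for all tested genes.

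To show the DNA in front of the genes that the values below turn on, 4 promoter stretches are given from the RefSeq table of GRCm38.p6, 5′ to 3′ on the strand of the gene. They belong to *Aldh1a1* and *Aldh1a2* (synthesis), *Crabp1* (binding) and *Cyp26b1* (breakdown). Each stretch lies within 250 bases before an annotated start and was cut back where GENCODE M21 places an exon. Capitals mark ATGCAAAT (the octamer), CCAAT and TATAAA, searched on both strands. The 3 motifs share no letters with each other in these stretches and were chosen after the sequences were read, as was the second start of *Aldh1a1*, since the stretch before its first start holds none of them.
Aldh1a1 (chr19:20601718-20601960, plus strand, ending 7 bases before the second of its RefSeq starts): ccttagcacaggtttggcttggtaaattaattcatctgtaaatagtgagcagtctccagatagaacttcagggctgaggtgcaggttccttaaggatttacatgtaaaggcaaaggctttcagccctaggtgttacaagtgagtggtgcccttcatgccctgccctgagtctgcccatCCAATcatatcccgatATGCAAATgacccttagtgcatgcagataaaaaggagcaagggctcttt
Aldh1a2 (chr9:71215539-71215788, plus strand): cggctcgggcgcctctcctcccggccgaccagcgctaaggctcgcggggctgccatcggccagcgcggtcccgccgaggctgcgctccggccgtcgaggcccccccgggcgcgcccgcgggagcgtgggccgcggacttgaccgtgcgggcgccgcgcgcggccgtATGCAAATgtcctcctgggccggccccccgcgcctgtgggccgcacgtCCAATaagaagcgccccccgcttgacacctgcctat
Crabp1 (chr9:54764498-54764747, plus strand): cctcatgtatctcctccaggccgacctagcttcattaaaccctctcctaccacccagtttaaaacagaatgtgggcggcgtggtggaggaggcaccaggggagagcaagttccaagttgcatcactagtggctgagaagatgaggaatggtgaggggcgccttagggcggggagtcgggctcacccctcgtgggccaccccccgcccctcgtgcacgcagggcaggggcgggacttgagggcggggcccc
Cyp26b1 (chr6:84593909-84594060, minus strand, ending 98 bases before the RefSeq start): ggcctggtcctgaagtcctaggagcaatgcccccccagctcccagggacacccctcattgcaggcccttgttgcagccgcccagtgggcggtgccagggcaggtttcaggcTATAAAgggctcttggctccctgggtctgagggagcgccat

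The stretches of *Aldh1a1* and *Aldh1a2* both hold the octamer and CCAAT, in opposite order: CCAAT begins 72 and the octamer 56 bases before the start of *Aldh1a1*, and the octamer begins 84 and CCAAT 36 bases before the start of *Aldh1a2*. Among the 32851 promoters in the table, 0.767% hold both within the 250 bases before the start, 1.6% hold the octamer, 33.8% CCAAT and 12.4% TATAAA. The stretch of *Aldh1a2* has a GC content of 77.6% with 40 CpG pairs, and that of *Aldh1a1* 46.1% with 1 CpG pair, so the 2 genes of this family differ widely in base composition there. Promoters were found in the table for 6 of the 9 genes. The half-sites of RA response elements were searched as AGGTCA and as GGGTCA, and likewise as AGTTCA and as GGTTCA, on both strands. No direct repeat of them with a spacer of 1, 2 or 5 bases lies in the stretches examined for these 6, and 0.426% of all promoters hold such a repeat. This says only that these letters are not in these windows.

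Per length of transcript, *Aldh1a1* had by far the highest level of the 9 genes. In CPM per kilobase of the longest annotated transcript, over all 6 samples, it stood at 27.2 ± 4.66 (SD, n = 6), followed by *Cyp26b1* at 5.0 ± 0.929, *Stra6* at 4.93 ± 0.957, *Dhrs3* at 4.56 ± 0.480 and *Rdh10* at 3.21 ± 0.595. *Aldh1a2* (1.3 ± 0.376), *Crabp1* (1.04 ± 0.477), *Crabp2* (0.576 ± 0.354) and *Aldh1a3* (0.110 ± 0.0592) came last. The lowest *Aldh1a1* value (20.3) was above the highest *Cyp26b1* value (6.42), and the lowest *Rdh10* value (2.57) was above the highest *Aldh1a2* value (1.87). All other neighbours in this order overlapped between samples. With the mean length of all annotated transcripts in place of the longest, *Stra6* (11) and *Dhrs3* (8.36) stood above *Cyp26b1* (6.09), so the order within this middle group rests on the transcript model.

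**Figure D1:**
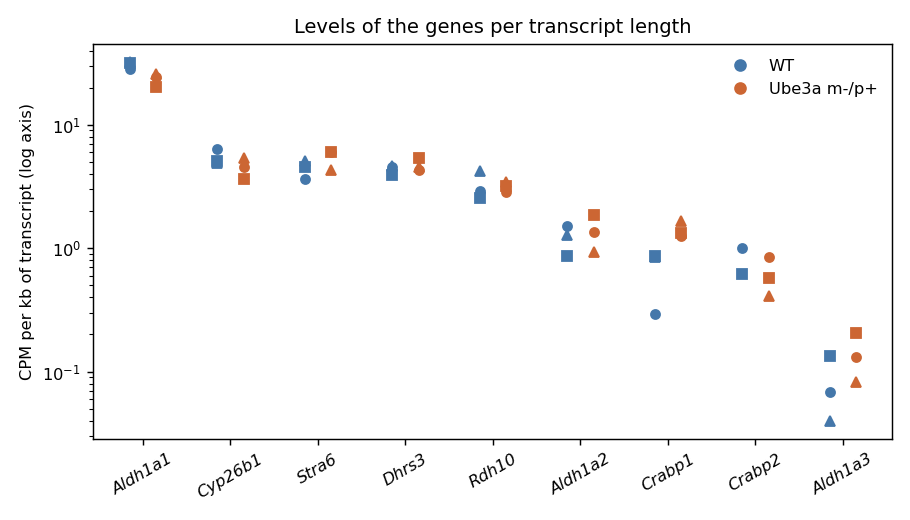
Levels of the 9 genes in CPM per kilobase of the longest annotated transcript (log axis), 1 point per sample, WT in blue and Ube3a m-/p+ in orange, with circles, squares and triangles for samples 1, 2 and 3. *Aldh1a1* lies apart from the rest, and *Crabp2* of WT sample 3, which had 0 counts, cannot be drawn on this axis.

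Retinol enters cells through the product of *Stra6*, the membrane receptor of the plasma retinol binding protein (chromosome 9 of GRCm38, 58063788 to 58153996). Its expression was 11.2, 14.1 and 15.6 CPM in WT samples 1, 2 and 3 and 18.5, 18.5 and 13.1 CPM in mutant samples 1, 2 and 3. Mutant samples 1 and 2 exceeded every WT sample, while mutant sample 3 lay below 2 of the WT samples, so the groups overlapped. This gave a log2 fold change of 0.31 (SE 0.17, 95% interval -0.05 to 0.67, adjusted p = 0.265, edgeR). Once the dependence on GC content and transcript length was taken out per library, it was 0.15 (adjusted p = 0.759, edgeR), without WT sample 1 it was 0.19, and without both samples numbered 1 it was 0.11.

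*Rdh10* encodes the main retinol dehydrogenase of RA synthesis, which makes retinaldehyde (chromosome 1, 16105774 to 16133734). It had 10.4, 9.22 and 15.2 CPM in WT samples 1, 2 and 3 and 10.3, 11.5 and 12.5 CPM in mutant samples 1, 2 and 3. The highest and the lowest values of all were both in WT samples. With a log2 fold change of 0.01 (95% interval -0.40 to 0.41, adjusted p = 0.990, edgeR), folds from 0.760 to 1.33 lie within the interval.

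*Dhrs3* encodes the reductase that turns retinaldehyde back into retinol and so works against *Rdh10* (chromosome 4, 144892827 to 144928209). Its values were 10.6, 9.22 and 10.8 CPM in WT samples 1, 2 and 3 and 10.1, 12.6 and 10.6 CPM in mutant samples 1, 2 and 3. Only mutant sample 2 lay above the WT range. Its log2 fold change was 0.14 (95% interval -0.21 to 0.50, adjusted p = 0.627, edgeR), and 0.05 after the correction for GC content and length. Without mutant sample 2 it was 0.05, without WT sample 2 0.07 and without both samples numbered 1 0.23.

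The retinaldehyde dehydrogenases *Aldh1a1*, *Aldh1a2* and *Aldh1a3* carry out the final, irreversible step to RA. *Aldh1a1* (chromosome 19, 20492715 to 20643465) had 570, 654 and 556 counts in WT samples 1, 2 and 3 and 510, 541 and 639 counts in the larger libraries of mutant samples 1, 2 and 3. In CPM these were 67.1, 75.4 and 76.2 in WT samples and 57.5, 47.8 and 60.7 in mutant samples. Every mutant sample lay below every WT sample, as in 14.2% of all tested genes (25.0% without overlap in either direction). Fitted by edgeR, the difference was -0.38 on the log2 scale (SE 0.11, 95% interval -0.60 to -0.16, adjusted p = 0.0609), with a two-sided exact permutation p of 0.1, the smallest that 3 samples against 3 allow. Its unadjusted p of 0.00247 placed it 586th of the 14445 genes.

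The difference in *Aldh1a1* passed the threshold in some settings and not in others. With DESeq2 the adjusted p was 0.0340, with the low-count filter removed 0.0240 (edgeR), without WT sample 1 0.0128 (edgeR), without mutant sample 1 0.0368 (edgeR) and without both of these samples 0.00296 (edgeR). In these settings the log2 difference lay between -0.47 and -0.37. Calls over all genes rose there from 290 to 967, 1176, 2582, 1816 and 4138, in the same order. After the correction for GC content and length the *Aldh1a1* difference was -0.31 (adjusted p = 0.0876, edgeR), and the smallest size, -0.27, came without mutant sample 2 (adjusted p = 0.298, edgeR). Without WT sample 2, WT sample 3 or mutant sample 3 the adjusted p was 0.284, 0.246 and 0.136 (edgeR). With the replicate number as a block it was 0.223, and 0.173 with block and correction together (edgeR). The other scalings and the filter of at least 10 counts gave 0.0568 to 0.0666 (edgeR). *Aldh1a7*, a close paralog that lies beside *Aldh1a1* on chromosome 19 and could share its reads, had 14 counts in the 6 libraries.

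*Aldh1a2*, the form of the enzyme known from the meninges (chromosome 9, 71215789 to 71296243), was expressed at a low level. It had 29, 17 and 21 counts in WT samples 1, 2 and 3 and 27, 48 and 22 counts in mutant samples 1, 2 and 3, which are 3.42, 1.96 and 2.88 CPM and 3.04, 4.24 and 2.09 CPM. The ranges overlapped, with the highest value in mutant sample 2. The estimate was 0.21 on the log2 scale (SE 0.33, 95% interval -0.49 to 0.91, adjusted p = 0.730, edgeR). It was -0.08 without mutant sample 2 and 0.01 without WT sample 2, so no direction can be given. *Aldh1a3* (chromosome 7, 66390890 to 66427517) had 2, 4 and 1 counts in WT samples and 4, 8 and 3 counts in mutant samples and did not pass the filter. Pooled over the samples this was 0.286 CPM (exact Poisson 95% interval 0.115 to 0.590) and 0.489 CPM (0.273 to 0.806), intervals that overlap and cover counting error only.

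The cellular RA binding proteins hold RA in the cytosol: CRABP1 is linked to its breakdown and CRABP2 passes it to the nuclear receptor. Both genes were near the floor of detection and were left out of the test. *Crabp1* (chromosome 9, 54764748 to 54773110) had 2, 6 and 5 counts in WT samples 1, 2 and 3 and 9, 12 and 14 counts in mutant samples 1, 2 and 3. In CPM these were 0.236, 0.692 and 0.686 CPM and 1.01, 1.06 and 1.33 CPM, so every mutant sample was above every WT sample, as in 10.8% of the tested genes. Without the filter on low counts the edgeR estimate was 1.11 on the log2 scale (SE 0.59, adjusted p = 0.283), and the pooled exact Poisson 95% intervals were 0.283 to 0.909 CPM and 0.794 to 1.59 CPM. *Crabp2* (chromosome 3, 87948666 to 87953376) had 8, 5 and 0 counts in WT samples and 7, 6 and 4 counts in mutant samples. Its pooled levels were 0.532 and 0.554 CPM, and a difference was not detectable at this depth.

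*Cyp26b1* encodes the cytochrome P450 that hydroxylates RA and is the form best known from the brain (chromosome 6, 84571414 to 84593908). It had 28.9, 22.9 and 22.1 CPM in WT samples 1, 2 and 3 and 20.4, 16.3 and 24.2 CPM in mutant samples 1, 2 and 3. Mutant samples 1 and 2 lay below every WT sample, and mutant sample 3 lay above 2 of them. On the log2 scale the difference was -0.26 (SE 0.16, 95% interval -0.60 to 0.07, adjusted p = 0.307, edgeR). It was -0.42 after the correction for GC content and length (adjusted p = 0.136, edgeR), -0.11 without mutant sample 2 and -0.13 without WT sample 1.

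**Figure D2:**
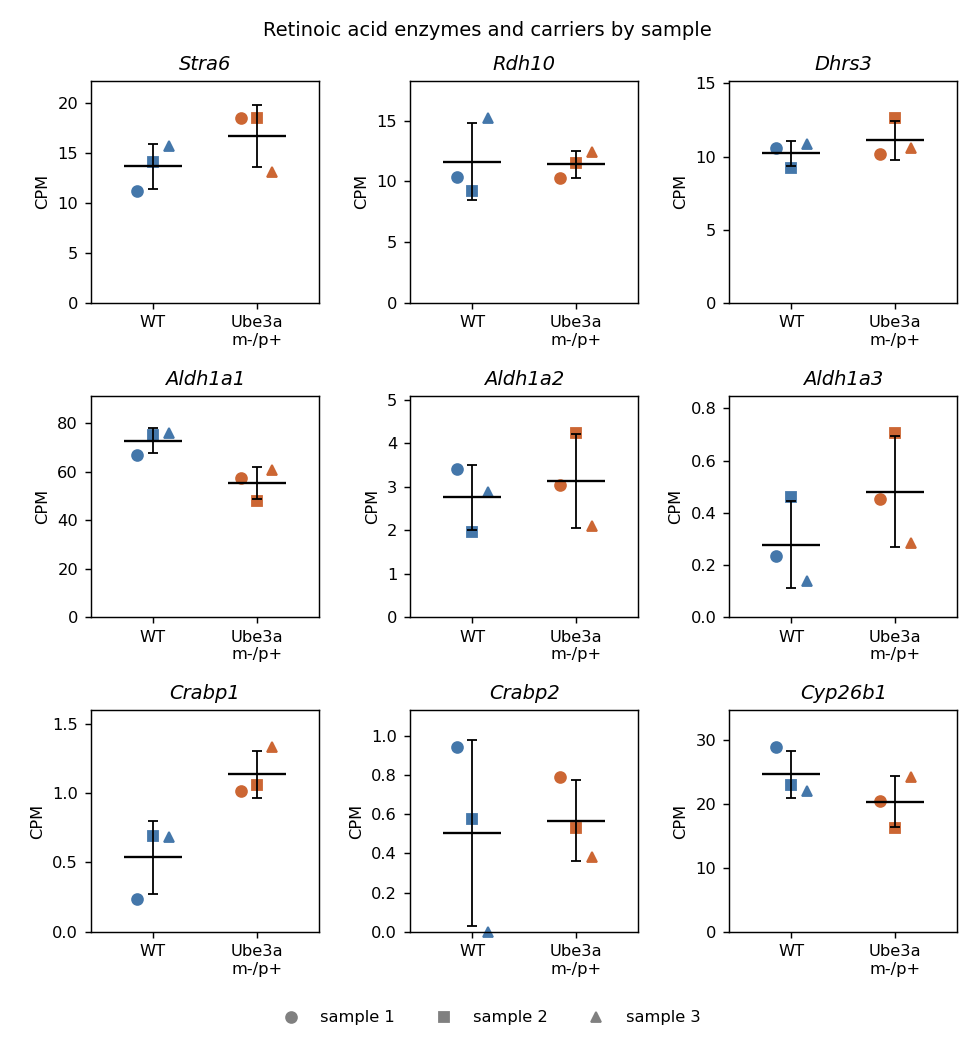
Expression of the 9 genes in CPM (y axes from 0, a scale for each gene) in WT and Ube3a m-/p+ samples, with circles, squares and triangles for samples 1, 2 and 3 and a black line and bar for the mean and SD (n = 3). *Aldh1a1* and *Crabp1*, the latter on 48 counts in all, are the genes in which the genotypes do not overlap.

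The libraries differed in how expression related to GC content, in which these genes also differ. Spearman's rho of transcript GC content with a library's deviation from the 6-library mean, taken over genes (no independent replicates), lay between -0.571 and 0.0455 in WT and between 0.0589 and 0.528 in mutant libraries. WT sample 1 and mutant sample 1 had 0.0455 and 0.0589. The other WT samples had -0.506 and -0.571, and the other mutant samples 0.526 and 0.528. Samples 1 thus lay between the others here, as on the first principal component. The longest transcript has a GC content of 46.1% in *Aldh1a1*, 46.8% in *Rdh10*, 56.3% in *Stra6* and 56.7% in *Cyp26b1*. With the correction the size of the log2 fold change went down in *Stra6*, *Dhrs3*, *Aldh1a1* and *Aldh1a2* and up in *Cyp26b1* and *Rdh10*.

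**Figure D3:**
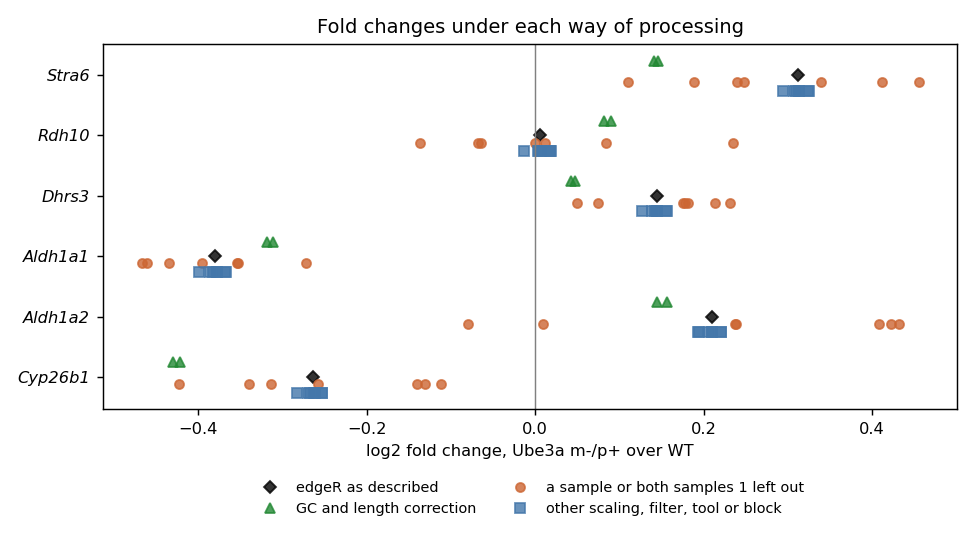
The log2 fold change (x axis, Ube3a m-/p+ over WT) of the 6 tested genes under each way of processing: edgeR as described (black), corrected for GC content and length (green), with samples left out (orange) and with other scalings, filters, DESeq2 or the replicate block (blue). *Aldh1a1* and *Cyp26b1* stay below 0 and *Stra6* and *Dhrs3* above 0 in all 16 alternatives, while *Rdh10* and *Aldh1a2* fall on both sides.

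The rest of the pathway was read from a list of 34 further retinoid genes, of which 18 were tested. None was called (0 of 18, edgeR), none had an unadjusted p below 0.05, and DESeq2 called none either. Without both samples numbered 1 edgeR called 2 of them as higher, *Fabp5* (log2 fold change 0.32, adjusted p = 0.0137) and the retinaldehyde reductase gene *Dhrs4* (0.60, adjusted p = 0.0292, against 0.25 and 0.485 with all 6 samples). In that setting 4138 of all 14631 genes tested were called, 1996 of them as higher. After the correction for GC content and length, *Fabp5* was at 0.21 (adjusted p = 0.283) and *Dhrs4* at 0.07 (adjusted p = 0.914, edgeR, all 6 samples). Of the 18, 14 had a higher and 4 a lower mean in mutant samples with a median log2 fold change of 0.13, while 7273 of all tested genes were higher and 7172 lower. Among the carriers, *Fabp5*, which passes RA to another nuclear receptor and had the most counts of the binding proteins (3119), showed 57.2, 51.0 and 48.9 CPM in WT samples 1, 2 and 3 and 55.1, 59.5 and 63.9 CPM in mutant samples 1, 2 and 3 (log2 fold change 0.20, adjusted p = 0.230, edgeR). Other well counted genes of the list, the retinyl ester synthase *Dgat1* (0.04), the dehydrogenase *Adh5* (0.04), the carotenoid receptor *Scarb1* (0.09) and the oxidase *Cyp1b1* (-0.08), had log2 fold changes close to 0. The other RA hydroxylases were hardly detected, with 11 counts of *Cyp26a1* and 0 of *Cyp26c1* in the 6 libraries.

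*Ttr*, which encodes transthyretin, the plasma partner of the retinol binding protein and the most abundant transcript of the choroid plexus, varied widely within each genotype (856 ± 1007 CPM in WT and 1184 ± 1017 CPM in mutant samples; SD, n = 3). It had 522, 58.8 and 1987 CPM in WT samples 1, 2 and 3 and 2049, 1439 and 63.0 CPM in mutant samples 1, 2 and 3. The low values of WT sample 2 and mutant sample 3 were shared by the summed choroid plexus markers, which ran from 107 to 2246 CPM in WT samples and from 112 to 2332 CPM in mutant samples (11 of 11 genes counted, and at most 1 of them at 0 in a library).

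Among the receptors, 0 of 6 were called by edgeR, with 1 at an unadjusted p below 0.05 (24.6% of all tested genes). This was *Rxrb*, the partner of RAR in the heterodimer, which had 65.6, 45.0 and 42.5 CPM in WT samples 1, 2 and 3 and 66.5, 74.3 and 77.9 CPM in mutant samples 1, 2 and 3 (log2 fold change 0.53, adjusted p = 0.0595, edgeR). The groups did not overlap, as in 25.0% of all tested genes, though WT sample 1 lay next to mutant sample 1. DESeq2 called it (adjusted p = 0.0145), and after the correction for GC content and length it was 0.26 (adjusted p = 0.165, edgeR). Without WT sample 1 it was 0.76 (adjusted p = 0.00103, edgeR) and without mutant sample 1 0.60 (adjusted p = 0.0380, edgeR), and without both 0.81 (adjusted p = 5.43e-06, edgeR). The receptors *Rara* (0.44, adjusted p = 0.0330, edgeR) and *Rxra* (0.37, adjusted p = 0.0329, edgeR) were also called without both samples numbered 1. With all 6 samples they had log2 fold changes of 0.23 and 0.22, and 0.00 and 0.06 after the correction for GC content and length. Without both samples numbered 1, 4138 of all 14631 genes tested were called. These samples were chosen because they lay between the genotypes in these same data. Leaving them out favours larger differences, so these calls are no separate support.

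Of 13 genes known to respond to RA, 9 were tested and 0 were called by edgeR. At an unadjusted p below 0.05 there were 3 of the 9, against 24.6% of all tested genes. *Nrgn*, which encodes the postsynaptic calmodulin-binding protein neurogranin, had 1372, 1017 and 881 CPM in WT samples and 1367, 1408 and 1617 CPM in mutant samples 1, 2 and 3 (log2 fold change 0.44, adjusted p = 0.0930, edgeR). DESeq2 called it (adjusted p = 0.0213), as did edgeR without WT sample 1 (0.65, adjusted p = 0.00120) and without both samples numbered 1 (0.69, adjusted p = 4.25e-05). *Rarres2*, which encodes the secreted protein chemerin, had 11.4 to 13.1 CPM in WT and 14.9 to 16 CPM in mutant samples (log2 fold change 0.33, edgeR adjusted p = 0.172). *Nrip1*, a corepressor of nuclear receptors, had 57.2 to 62.5 CPM in WT and 41.9 to 54.3 CPM in mutant samples (log2 fold change -0.28, edgeR adjusted p = 0.115), and -0.37 without mutant sample 1 (adjusted p = 0.0330, edgeR) or -0.40 without both samples numbered 1 (adjusted p = 0.00402, edgeR). Of these 3, *Nrgn* moved to 0.18 and *Nrip1* to -0.09 under the GC and length correction. Calls over all genes were 967 with DESeq2, 2582 without WT sample 1, 1816 without mutant sample 1 and 4138 without both samples.

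**Figure D4:**
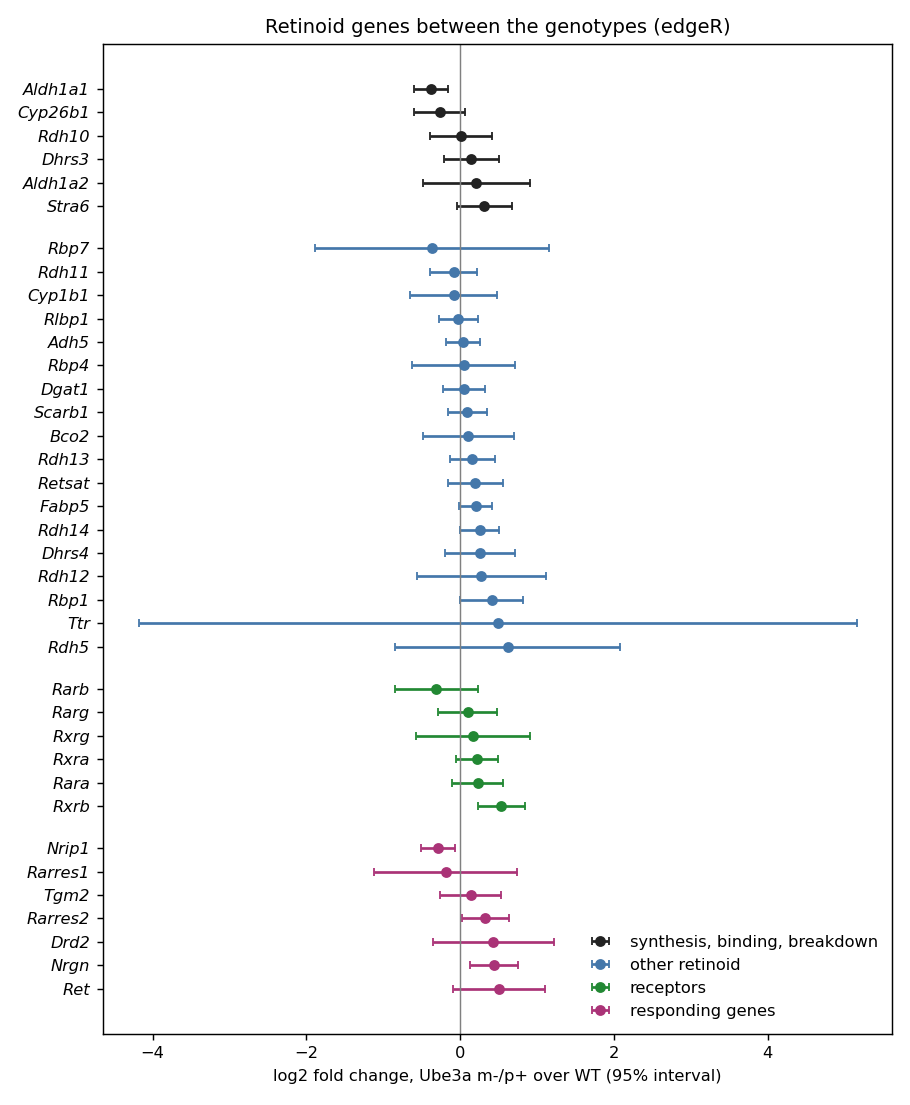
Log2 fold changes (x axis, Ube3a m-/p+ over WT) with 95% intervals from edgeR for the tested genes of RA synthesis, binding and breakdown (black), further retinoid genes (blue), receptors (green) and other genes that respond to RA (purple). Of the 6 genes in black, the interval leaves out 0 in *Aldh1a1* alone, and *Ttr* has the widest interval.

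Markers of other cells moved with genotype in part, and their sums are given beside *Aldh1a1* and *Aldh1a2*. The summed astrocyte markers (7 of 7 genes counted, with *Slc1a2* the most and *Aldh1l1* the least abundant) were 5182 to 5597 CPM in WT samples and 4627 to 4855 CPM in mutant samples, so they were lower in every mutant sample, as *Aldh1a1* was. The same held for the sums of endothelial markers (283 to 301 against 248 to 259 CPM, *Flt1* to *Pecam1*), of pericyte and smooth muscle markers (243 to 263 against 211 to 226 CPM, *Rgs5* to *Kcnj8*), of microglial markers (255 to 266 against 242 to 244 CPM, *Csf1r* to *Aif1*) and of oligodendrocyte markers (7954 to 8070 against 6641 to 7568 CPM, *Mbp* to *Mog*). Single genes of these lists did not all go the same way: a higher mean in mutant samples was found in 3 of 7 astrocyte, 1 of 6 endothelial, 3 of 7 pericyte, 3 of 6 microglial and 3 of 6 oligodendrocyte genes. In the astrocyte, pericyte and microglial lists the sums of the genotypes overlapped once the gene whose mean fell most was left out, a step added after the values were seen. Without *Slc1a2* the astrocyte sums were 2124 to 2158 CPM in WT and 2087 to 2160 CPM in mutant samples, and without *Rgs5* the pericyte sums were 116 to 138 and 120 to 140 CPM. The microglial sums without *P2ry12* were 215 to 220 and 209 to 216 CPM. The endothelial sums without *Slco1a4* remained apart (221 to 229 and 200 to 212 CPM). In the pericyte list 1 gene, *Rgs5*, was called (log2 fold change -0.51, adjusted p = 0.0387, edgeR), and it was not called without WT sample 2, WT sample 3, mutant sample 2 or mutant sample 3, nor after the correction for GC content and length. Sums of GABA neuron markers (881 to 942 and 876 to 917 CPM, *Cck* to *Vip*) and of hippocampal excitatory neuron markers (2078 to 2386 and 2316 to 2700 CPM, *Slc17a7* to *Zbtb20*) overlapped. No gene was left out of these sums. Of the GABA genes, 4 had a higher and 4 a lower mean in mutant samples. *Gad1*, *Gad2* and *Reln* were lower in every mutant sample, as were 14.2% of all tested genes. *Cck* had a higher mean (214 CPM in WT and 282 CPM in mutant samples), so the overlap of the sums does not speak for each gene. The part of these cells in the *Aldh1a1* difference was not tested.

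The meningeal and fibroblast markers (16 of 16 genes counted, *Igf2* to *Slc47a1*) summed to 179, 144 and 226 CPM in WT samples 1, 2 and 3 and to 264, 275 and 155 CPM in mutant samples 1, 2 and 3. Of the 16 genes, 13 had a higher mean in mutant samples and 1, the collagen gene *Col1a1*, was called (log2 fold change 0.73, adjusted p = 0.0416, edgeR, a call lost without WT sample 2, WT sample 3, mutant sample 2 or mutant sample 3, and after the correction for GC content and length). WT sample 2 and mutant sample 3 had the lowest sums, and the same samples had the lowest *Aldh1a2* (1.96 and 2.09 CPM). Mutant sample 2 was highest in both. WT sample 1 went the other way: its sum was below those of WT sample 3 and mutant sample 1. Its *Aldh1a2* (3.42 CPM) was above theirs (2.88 and 3.04 CPM). The choroid plexus sums were also lowest in WT sample 2 and mutant sample 3 (107 and 112 CPM, against 627 to 2332 CPM in the other samples). The low samples are therefore not particular to the meningeal list. Whether the amount of meninges or of choroid plexus sets the *Aldh1a2* level of a library was not tested.

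**Figure D5:**
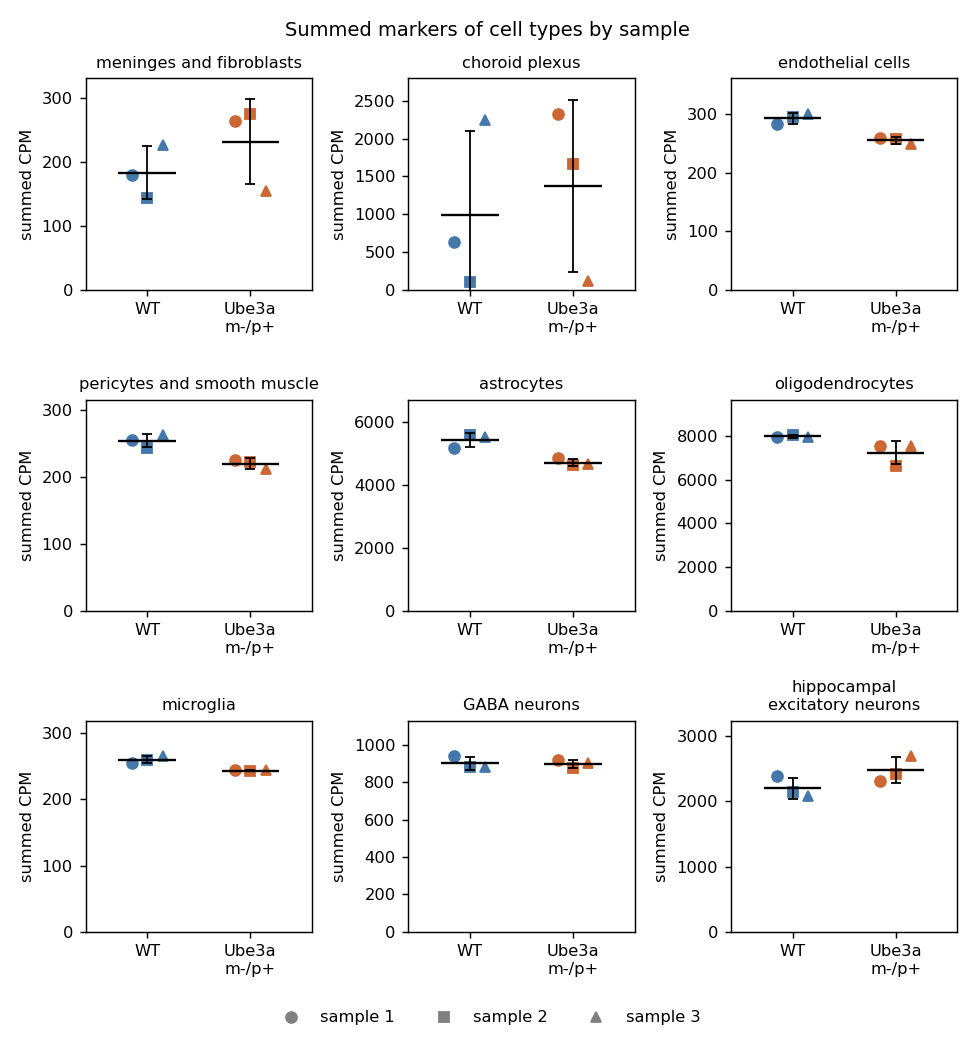
Summed CPM of 9 lists of cell type markers (y axes from 0) in WT and Ube3a m-/p+ samples, with circles, squares and triangles for samples 1, 2 and 3 and a black line and bar for the mean and SD (n = 3). Astrocyte, endothelial, pericyte, microglial and oligodendrocyte sums are lower in every mutant sample, while the choroid plexus sum runs from 107 to 2332 CPM with both genotypes near both ends.

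The tested genes whose log2 CPM followed *Aldh1a2* most closely over the 6 libraries were *Zfp536*, *Fhdc1* and *Vsig2*, with Pearson's r of 0.992, 0.992 and 0.988. For *Cyp26b1* they were *Tmem106a*, *Rpf2* and *Mpzl1*, with r of 0.988, 0.975 and 0.967. These were the top of 14444 genes compared over 6 points that share depth and scaling, where 60 and 40 genes had an r above 0.9, and they are a description with no test.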

How the data were processed

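Hippocampal RNA of 6 samples was sequenced, 1 library each. The authors deposited counts, whole numbers of reads per gene symbol, neither normalized nor pooled; the submitters' processing notes name STAR 2.7.4a, HTSeq and mm10. The annotation and strand setting are not given in the sources used here. Extraction is by Trizol per the labels and by a column kit in the methods. Reads on no gene (54.1% to 55.0%) were left out.

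CPM was taken on the total counts on genes. Counts were tested in R 4.3.3 with edgeR 4.0.16 (filterByExpr, TMM, robust quasi-likelihood F test, genotype as the only factor, two-sided) and Benjamini-Hochberg adjustment over 14445 genes. Single genes were compared by exact permutation of log2 CPM, with 0.5 counts added. The steps were tested on simulated data. Alternatives were DESeq2 1.42.0, other scalings and filters, a replicate block, a correction for GC content and length by natural splines with 5 degrees of freedom, and leaving out samples. Poisson intervals cover counting error only.

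The genes and lists were chosen with earlier results of these data known. Named were the 9 genes, *Ube3a*, list genes with an unadjusted p below 0.05, the most counted gene of each list, the extremes of each marker list in counts, and the 3 genes most like *Aldh1a2* and *Cyp26b1*. Others (*Cyp26c1*, *Aldh1a7*, *Col1a1*, *Prox1*, *Rpe65*, *Dhrs4*, *Rara*, *Rxra*, *P2ry12*, *Slco1a4*, *Gad1*, *Gad2*, *Reln*, *Snhg14*) were named after their values were seen, or as checks. Positions are from GENCODE M21 (GRCm38, the build of mm10).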

Additional observations from a re-analysis of the deposited data

How the results depend on the processing

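Of the 6 tested genes of RA synthesis, binding and breakdown, 1 (*Aldh1a1*) was called with DESeq2, without the filter on low counts, without both samples numbered 1 and at an unadjusted p, and 0 to 1 with each sample left out. The list of further retinoid genes, receptors and responding genes, with 0 of 31 called, gave 2 with DESeq2, 1 without the filter, 7 without both samples numbered 1, 4 at an unadjusted p, and 0 to 2 with each sample left out. Over all genes the count of 290 became 967 with DESeq2, 1176 without the filter, 4138 without both samples numbered 1, 2832 at an unadjusted p and 92 once GC content and length were corrected for, and ran from 0 to 2582 with each sample left out. *Rdh10* turned to -0.0136 with library size only and to -0.000759 without both samples numbered 1, and ran from -0.14 to 0.23 with each sample left out. *Aldh1a2* turned to -0.0799 without mutant sample 2 and ran up to 0.43. The level of *Aldh1a1* over that of *Cyp26b1* per length was 5.51 with the longest and 7.41 with the mean transcript length. The cause of these moves was not tested. The other scalings and the filter of at least 10 counts left 0 of those tested in both sets called.

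With the replicate number as a block, 0 of the 6 genes, 0 of the 31 and 0 of all genes were called (edgeR, 2422 of all genes at an unadjusted p below 0.05), and 13 of all genes with the block and the correction together. Deviations from the genotype means correlated by -0.28, -0.18 and -0.31 between samples numbered 1, 2 and 3, so the numbers are not taken as pairs, and no sample correlated best with its own number. Depth limits *Aldh1a3*, *Crabp1* and *Crabp2*, with 22, 48 and 30 counts in the 6 libraries.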

Other observations

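*Stra6* (uptake of retinol) and *Cyp26b1* (breakdown of RA) ran in nearly opposite order over the 6 samples, a pair picked out of 15 after the values were seen. *Stra6* was highest in mutant samples 1 and 2 (18.5 and 18.5 CPM) and lowest in WT sample 1 (11.2 CPM). *Cyp26b1* was lowest in the same mutant samples (20.4 and 16.3 CPM) and highest in WT sample 1 (28.9 CPM). The order crosses the genotypes, since mutant sample 3 (13.1 and 24.2 CPM) lay next to WT sample 1 in both genes.

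*Rpe65*, which encodes the retinoid isomerase of the retinal pigment epithelium, had 12 counts in the 6 libraries, too few to be tested, and is named after its values were seen. WT samples 1, 2 and 3 held 3, 3 and 5 of them, and mutant samples 1, 2 and 3 held 0, 1 and 0.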
